A study of Mus musculus with 5 samples.

Results

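Fbxl14, Fbxo9, Fbxo33 and Fbxo45 are 4 of the 71 cullin and F-box genes whose levels were deposited for this study, and they are read by 7 of its 130 probe sets. They were taken by name because the study's siRNA screen, made in neonatal rat cardiomyocytes (CM) and not part of the tables, listed them among its hits for basal cell size, Fbxo9 and Fbxo33 among those with larger cells after depletion and Fbxl14 and Fbxo45 among those with smaller cells. The screen's library had itself been drawn up from expression in CM, so that a high level in CM is part of how they came to be chosen and is given as a description. In the study's isoleucine incorporation assay the decrease for Fbxl14 was not borne out, while Fbxo9, Fbxo33 and Fbxo45 changed in the direction of their cell size.

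RNA of 5 mouse samples was hybridised to Affymetrix arrays, 1 sample for each condition and each a pool of 5 male mice aged 6 months. Left ventricular tissue (LV), adult CM and non-failing cardiac fibroblasts (NF CFb) came from healthy C57Bl/6N hearts, lung fibroblasts (Lung Fb) from C57Bl/6N lung, and failing cardiac fibroblasts (F CFb) from hearts of beta1-adrenergic transgenic mice with heart failure. No source used here states the promoter of that transgene or how the mouse cells were isolated and kept, and the effects of transgene and disease cannot be told apart between both kinds of cardiac fibroblasts. The sample titles give LV, CM and Lung Fb as wild type, and that of NF CFb names no genotype. Of 19 marker genes of cardiomyocytes, fibroblasts and other cells of heart and lung, 0 are in the tables that pair probe sets with gene names, so the labelled cell types were not checked here. LV stood apart from the isolated cells, with a median of 4.76 over the 130 probe sets against 6.22 to 6.67 in the other samples and values down to -3.32, and the differences between LV and CM are therefore also given after the samples were brought to equal medians. With 1 sample per condition no test was possible, and every difference below is a difference between single pools.

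F-box proteins are the exchangeable receptors of SCF ubiquitin ligases, in which the scaffold Cul1 holds a RING protein at one end and the adaptor Skp1 with the F-box protein at the other. The receptor binds the substrate and so decides which protein is tagged for the proteasome. Fbxl14, a leucine-rich repeat receptor, targets Snail family transcription factors. Human FBXO9 directs degradation of the mTOR pathway cofactors TEL2 and TTI1, human FBXO33 acts on the Y-box protein YB-1, and Fbxo45, which carries a SPRY domain, works with the large RING protein Mycbp2 at synapses in place of a cullin scaffold. Of the 3 core SCF genes sought, Cul1, Skp1 and Rbx1, the tables held Cul1 alone, and of 7 known partners and substrates of these receptors they held 0.

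The siRNA pools that put these genes on the list are shown because they define the set. Each pool held 4 rat siRNAs of 19 bases, and 14 of the 16 sequences could be read as bases, all of them for Fbxo9, Fbxo33 and Fbxo45 and 2 for Fbxl14. Capitals mark bases that an siRNA shares with the site of a qPCR primer for the same gene, where at least 10 bases matched.
Fbxl14 siRNA 1: uggccaugaucuucggcua
Fbxl14 siRNA 2: gcauagacCUGUACGGCUG
Fbxo9 siRNA 1: gugagaagcuacacggcgu
Fbxo9 siRNA 2: uggccgaucuccugucgua
Fbxo9 siRNA 3: ggcaccaaguggaauauua
Fbxo9 siRNA 4: aggcguagguuccaguaau
Fbxo33 siRNA 1: cagucgaacuagagcgcuu
Fbxo33 siRNA 2: caaagaacguagucgggua
Fbxo33 siRNA 3: ucgaguuucucaugcgcaa
Fbxo33 siRNA 4: gcgagaguccugaccgaca
Fbxo45 siRNA 1: GAUAGGGAUUGCUacgaaa
Fbxo45 siRNA 2: gacuUUAGCCUUUGAGCGU
Fbxo45 siRNA 3: ggagagagaauccgaguca
Fbxo45 siRNA 4: caacaugccuucagcacga
The 14 siRNAs held 8 to 12 G or C bases each and 0 were shared between genes. Of these, 3 overlapped a primer site. For Fbxo45 the first shared 13 bases with the forward primer and the second 15 bases with the complement of the reverse primer, and for Fbxl14 the second shared 11 bases with the complement of the reverse primer. The strand written is thus that of the mRNA for those 3.

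Fbxl14 was read by 1 probe set, 1417407_at. Its log2 expression level was 9.84 in LV, 9.70 in Lung Fb, 7.68 in CM, 6.93 in F CFb and 6.86 in NF CFb. It lay over 6.5 in all 5 samples, the level from which the study assumes strong expression, and fell into 3 steps, with LV and Lung Fb on top, CM between, and the 2 cardiac fibroblast samples, which differed by 0.070, at the bottom. A single probe set leaves no spread against which the gaps could be read. The study's library list placed Fbxl14 in a group below 6.5 in CM, lower than the 7.68 here. It placed Fbxo33 in that group and Fbxo9 and Fbxo45 in the group over 6.5, where their means in CM here also fell (6.09, 6.97 and 6.87). Of the 2 probe sets of Fbxo9 and of Fbxo45, though, only 1 each reached 6.0 in CM.

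Fbxo9 was read by 2 probe sets that gave different accounts of CM and Lung Fb. Probe set 1417480_at stood at 9.79 in LV, 9.17 in CM, 9.07 in Lung Fb, 5.95 in NF CFb and 5.14 in F CFb. Probe set 1432211_a_at stood at 8.62 in LV, 7.14 in NF CFb, 6.22 in F CFb, 5.25 in Lung Fb and 4.77 in CM. By the first, CM and Lung Fb were high and the cardiac fibroblasts low, and by the second the reverse held, whereas both put LV above every other sample and F CFb below NF CFb. The mean of both was 9.21 ± 0.82 in LV, 7.16 ± 2.70 in Lung Fb, 6.97 ± 3.11 in CM, 6.54 ± 0.85 in NF CFb and 5.68 ± 0.76 in F CFb (SD of 2 probe sets on 1 array, which is no replicate error). The means of Lung Fb, CM and NF CFb lay closer together than these SDs. In the naming of the manufacturer, the ending _a_at marks a probe set shared by alternative transcripts of a gene.

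Fbxo33 had the smallest span of the 4 genes by its mean as deposited, which averages probe sets that disagree. Probe set 1426870_at stood at 8.65 in LV, 7.06 in Lung Fb, 6.02 in NF CFb, 5.96 in CM and 5.41 in F CFb. Probe set 1426871_at stood at 7.59 in F CFb, 7.001 in NF CFb, 6.87 in Lung Fb, 6.60 in LV and 6.21 in CM. F CFb was thus the lowest sample by the first probe set and the highest by the second. The mean was 7.62 ± 1.45 in LV, 6.97 ± 0.14 in Lung Fb, 6.51 ± 0.70 in NF CFb, 6.501 ± 1.54 in F CFb and 6.09 ± 0.18 in CM (SD of 2 probe sets). From its highest to its lowest sample the mean spanned 1.54 on the log2 scale, against a median span of 3.74 over the 71 genes, and 66 genes spanned more. Its probe sets spanned 3.23 and 1.38. The spans of the other means were 3.52 for Fbxo9, 2.98 for Fbxl14 and 2.85 for Fbxo45, and with equal medians that of Fbxo33 was 3.03 and that of Fbxo45 1.32.

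Fbxo45 had its highest mean in NF CFb. Probe set 1428742_at stood at 8.60 in NF CFb, 8.44 in F CFb, 7.58 in LV, 6.71 in Lung Fb and 5.09 in CM. Probe set 1452895_at stood at 8.83 in Lung Fb, 8.66 in CM, 8.06 in NF CFb, 5.27 in F CFb and 3.36 in LV. CM was the lowest sample by the first and the second highest by the other. The mean was 8.33 ± 0.38 in NF CFb, 7.77 ± 1.498 in Lung Fb, 6.87 ± 2.53 in CM, 6.85 ± 2.24 in F CFb and 5.47 ± 2.98 in LV (SD of 2 probe sets). With equal medians its lowest mean was in F CFb, at 6.43 against 6.80 in LV. Only in NF CFb, among the 5 samples, did the probe sets lie within 1 log2 unit of each other.

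**Figure D1:**
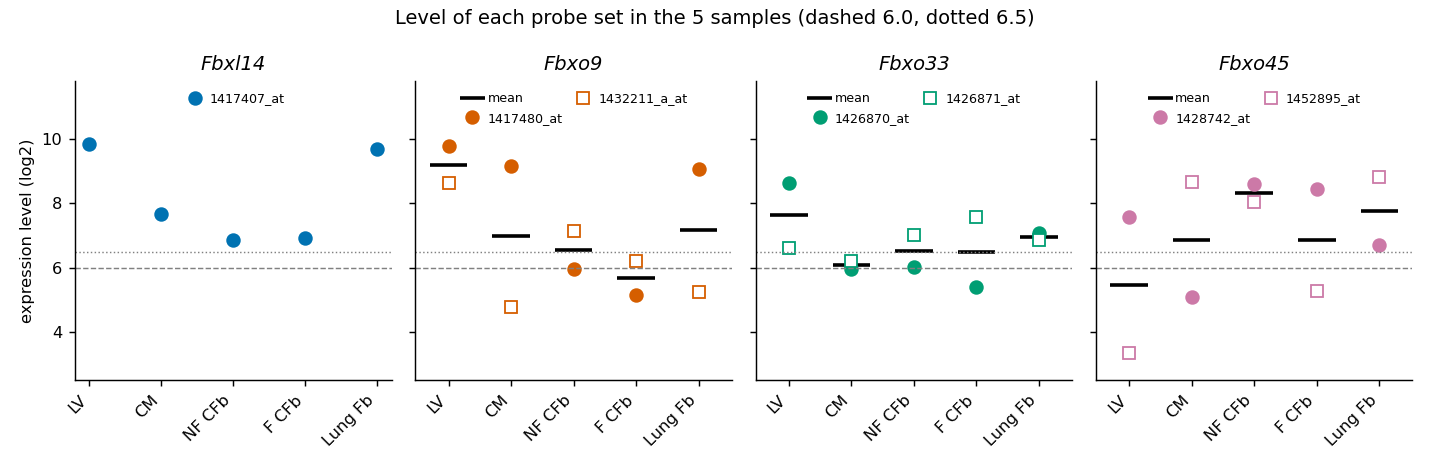
Log2 expression level of each probe set (filled circles and open squares) and the gene mean (black bars, where there are 2 probe sets) in the 5 samples, with dashed and dotted lines at 6.0 and 6.5. For Fbxo9 and Fbxo45 the probe sets stand far apart in CM, at 9.17 and 4.77 and at 5.09 and 8.66, while Fbxl14 lies over 6.5 in every sample.

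In the adult mouse CM, the cell type of the screen at another age and in another species, the mean of all 4 genes was at least 6.0, the level from which the study assumes relevant expression, as it was for 53.5 percent of the 71 genes. The count rests on how each gene was summarised and on the scaling. With the samples brought to equal medians or to identical distributions it was 3, with Fbxo33 at 5.95 and 5.94. Of the 3 genes with 2 probe sets, each had 1 probe set at 6.0 or more in CM and 1 below, although for Fbxo33 these were close, at 6.21 and 5.96. A mean of at least 6.0 was found for 3 of the 4 genes in LV (33.8 percent of all genes), 4 in NF CFb (74.6 percent), 3 in F CFb (73.2 percent) and 4 in Lung Fb (49.3 percent). The genes below were Fbxo45 in LV and Fbxo9 in F CFb. Under both scalings the count was 4 in LV, 2 in NF CFb and 4 in Lung Fb, and in F CFb it was 3 and 2. Above 6.5 there were 3 of the 4 genes in CM (43.7 percent of all genes), where Fbxo33 dropped out, and again 3 in LV (28.2 percent), 4 in NF CFb (64.8 percent), 3 in F CFb (54.9 percent) and 4 in Lung Fb (39.4 percent).

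The way the probe sets ordered the samples was compared over the 10 possible pairs of samples. Both probe sets gave 1 direction in 5 pairs for Fbxo9, 4 for Fbxo45 and 3 for Fbxo33, against a median of 5 over the 19 genes with 2 probe sets. For Fbxo33, both put CM below LV, NF CFb and Lung Fb. For Fbxo45, both put LV below NF CFb and F CFb, F CFb below NF CFb, and CM below Lung Fb. All these directions are as deposited, where LV had a median of 4.76 against 6.67 in NF CFb and 6.51 in F CFb. In 1428742_at LV lay below these samples (7.58 against 8.60 and 8.44) by less than the medians differ. Equal medians would thus reverse LV against both for that probe set of Fbxo45. The agreement of Fbxo33 for CM and NF CFb was also lost with equal medians. Once each probe set was centred on its own mean over the samples, the root mean square difference between partners was 2.98 on the log2 scale for Fbxo45, 2.36 for Fbxo9 and 1.39 for Fbxo33, and the median over the 19 genes was 2.31. Of the 128 probe sets of other genes, 104 were closer to Fbxo45 1428742_at than its own partner was, and 98 were closer to 1452895_at. The corresponding numbers were 38 and 72 for Fbxo9 and 25 and 46 for Fbxo33.

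Fbxo9 has 2 start sites in RefSeq, 409 bases apart on the minus strand of chromosome 9, and both promoters are shown (GRCm38.p6, 250 bases before to 50 after each start, 5′ to 3′). The upstream one is chr9:78109016-78109315 and the downstream one chr9:78108607-78108906. Capitals mark a match, on either strand, to the TATA box letters TATAAA, the CCAAT box, the GC box letters GGGCGG, or the MEF2 site of muscle genes, taken as CTA and TAG with 4 free bases between them.
Fbxo9 upstream promoter: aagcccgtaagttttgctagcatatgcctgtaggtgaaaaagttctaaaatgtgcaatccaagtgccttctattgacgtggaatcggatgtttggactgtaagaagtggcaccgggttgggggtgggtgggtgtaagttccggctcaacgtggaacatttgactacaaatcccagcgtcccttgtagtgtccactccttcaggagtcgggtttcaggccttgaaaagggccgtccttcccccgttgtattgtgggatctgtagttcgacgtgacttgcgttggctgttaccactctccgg
Fbxo9 downstream promoter: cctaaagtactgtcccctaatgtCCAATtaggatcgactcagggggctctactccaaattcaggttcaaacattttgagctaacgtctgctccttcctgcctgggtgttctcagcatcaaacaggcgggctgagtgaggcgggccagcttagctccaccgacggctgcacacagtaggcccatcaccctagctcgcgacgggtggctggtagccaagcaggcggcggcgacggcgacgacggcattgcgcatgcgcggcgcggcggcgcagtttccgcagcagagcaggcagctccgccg
The upstream window held 14 CG dinucleotides, 51 percent G or C bases and 0 of the 4 motifs. The downstream window held 26 CG dinucleotides, 62 percent G or C and 1 CCAAT, a motif found in 37.4 percent of the 32851 promoter windows of RefSeq. The median window held 7 CG dinucleotides. No source used here states which transcript each probe set reads, and a link between the start sites and the probe sets was not tested. Of the other genes, Fbxl14 and Fbxo33 had an entry. The window of Fbxl14 held 56 CG dinucleotides, more than 99.8 percent of all windows, and 4 non-overlapping GGGCGG matches, and that of Fbxo33 held 36 and 1. The GC box letters were found in 35.7 percent of windows, the TATA box in 13.6 percent and the MEF2 site in 3.69 percent, and neither of these last 2 stood in a window of the genes here.

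LV and CM were compared as tissue against its isolated muscle cells. Fbxo9, Fbxl14 and Fbxo33 were higher in LV, and Fbxo45 was lower by its mean. Fbxo9 was higher in LV by 2.23 on the log2 scale, or 4.70-fold, with its probe sets at 0.61 and 3.85. Fbxl14 was higher by 2.16, or 4.47-fold, and Fbxo33 by 1.54, or 2.90-fold, with its probe sets at 2.69 and 0.39. Under the rule used throughout, at least 2-fold with a mean of 6.0 or more in 1 of the 2 samples, 3 of the 4 genes were thus higher in LV, where 14.1 percent of all genes were, and 1 was lower, where 31.0 percent were. The count of 3 was 2 with the highest probe set and without the _a_at probe set, where Fbxo9 stood at 0.61, and 2 with the lowest probe set, where Fbxo33 stood at 0.64. The median difference was 1.85 over the 4 genes and -0.975 over all 71. Fbxo45 differed by -1.40, from probe sets at 2.49 and -5.30, which oppose each other.

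Of the 3 genes with 2 probe sets, Fbxo9 and Fbxo33 had both higher in LV, and Fbxo45 had them opposed. All probe sets gave 1 direction for 37.5 percent of the 32 genes with several. Fbxl14, with 1 probe set, could not disagree. The direction of Fbxl14, Fbxo9 and Fbxo33 was kept when the 5 samples were given equal medians or identical distributions. With equal medians 38.0 percent of all genes stood 2-fold higher in LV, and with identical distributions 29.6 percent, against the same 3 genes here. With equal medians Fbxo45 turned to 0.066, and the median difference over all genes went from -0.975 to 0.491. LV values have a form of their own, since all 7 of these probe sets had at most 1 decimal in LV on the linear scale, against 2 of the 28 values in the other samples. The part of this in the differences was not tested. In tissue, a lower share of one cell type and less RNA per cell cannot be told apart.

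CM and NF CFb, the muscle and stromal cells of the healthy heart, differed by less than 2-fold in 3 of the 4 genes. Fbxl14 was higher in CM by 0.82. Fbxo9 differed by 0.43, from probe sets at 3.23 and -2.37, so that one gave CM a 9.36-fold higher and the other a 5.18-fold lower level. Fbxo33 was lower in CM by both probe sets, with -0.057 and -0.79, and 40.6 percent of the 32 genes with several probe sets had them all in 1 direction. Fbxo45 was lower in CM by its mean, at -1.45, but its probe sets stood at -3.51 and 0.60. By the 2-fold rule 0 genes were higher and 1 was lower, beside 21.1 and 36.6 percent of all genes. With equal medians Fbxl14 reached 1.26 and Fbxo33 turned to 0.024, against a median over all genes of -0.508 as deposited and -0.0624 after it.

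F CFb and NF CFb were compared for the failing heart. Fbxo45 was lower in F CFb by 1.47 on the log2 scale, or 2.78-fold, with both probe sets in that direction at -0.16 and -2.79, so that nearly all of the difference came from 1452895_at. Fbxo9 was also lower in F CFb in both probe sets, which here gave close values of -0.80 and -0.92, a mean difference of 1.82-fold. Fbxl14 differed by 0.070. Fbxo33 differed by -0.0083 as the mean of opposite changes, with -0.61 in one probe set and 0.59 in the other. By the 2-fold rule 0 genes were higher and 1 was lower, beside 19.7 and 22.5 percent of all genes. Of the 32 genes with several probe sets, 31.2 percent had all of them in 1 direction in this pair. Fbxo9 and Fbxo45 remained lower in F CFb with equal medians, by -0.70 and -1.32, and with identical distributions, by -1.29 and -2.50.

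Lung Fb and NF CFb were compared as fibroblasts of 2 organs. Fbxl14 was higher in Lung Fb by 2.84, or 7.18-fold, and 0 of the other 70 genes had a more positive difference. It was the only one of the 4 past 2-fold, beside 14.1 percent of all genes higher and 42.3 percent lower. Fbxo9 differed by 0.61, with probe sets at 3.12 and -1.89. Fbxo33 differed by 0.46 and Fbxo45 by -0.56, each from probe sets of opposite sign, at 1.05 and -0.13 and at -1.89 and 0.77. The probe sets of all 3 thus disagreed here, and 25.0 percent of the 32 genes with several had them in 1 direction. With equal medians Fbxl14 reached 3.25 and Fbxo9 passed 2-fold at 1.02.

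**Figure D2:**
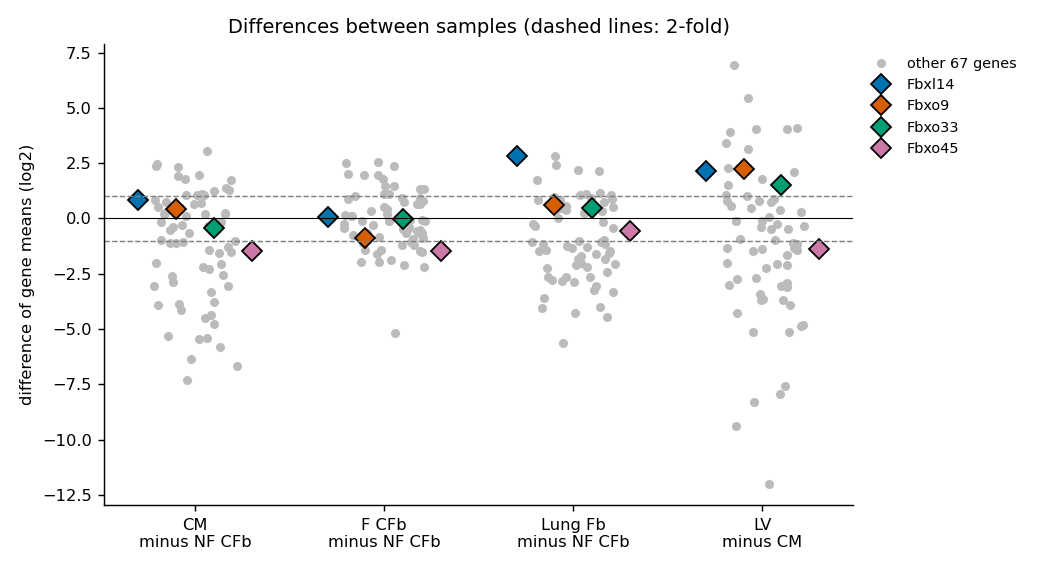
Difference of the gene means on the log2 scale in the 4 pairs of samples, with the 4 genes as coloured diamonds, the other genes as grey dots spread sideways for view, and dashed lines at 2-fold. Fbxl14 has the most positive of the 71 differences between Lung Fb and NF CFb, at 2.84, and Fbxl14, Fbxo9 and Fbxo33 lie above 2-fold in LV minus CM while Fbxo45 lies below.

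**Figure D3:**
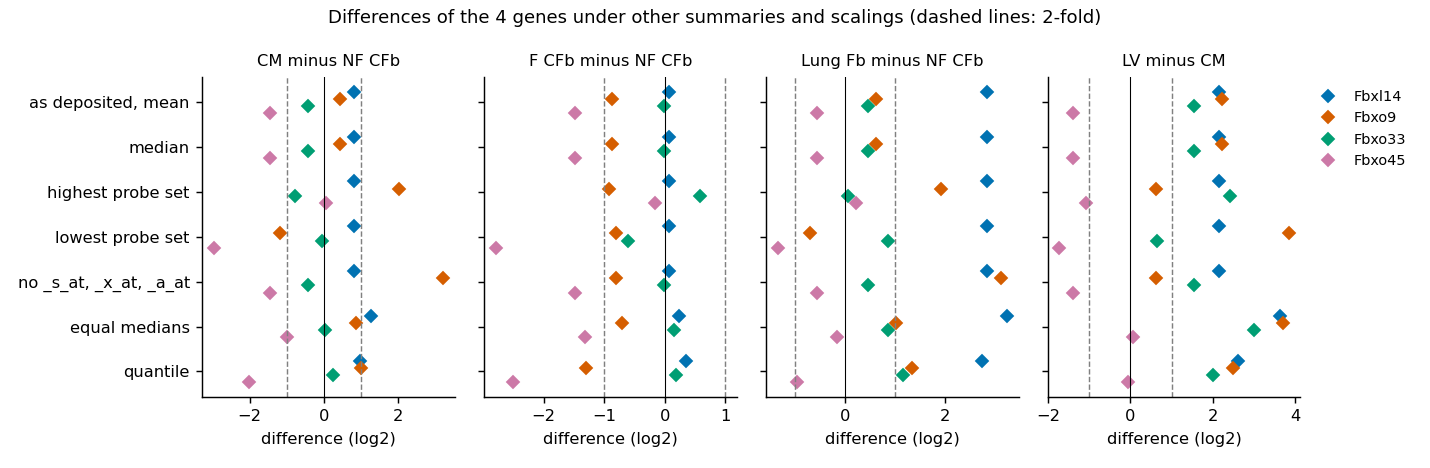
Log2 difference of each gene (diamonds, in the colours of the legend) in the 4 pairs under other summaries of the probe sets and other scalings of the samples, with dashed lines at 2-fold. Fbxo9 in CM minus NF CFb runs from -1.18 with the lowest probe set to 3.23 without the _a_at probe set, whereas Fbxo45 in F CFb minus NF CFb stays below 0 in each row.

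The patterns of the 4 genes over the samples were set against each other and against the other genes, after each gene was centred on its own mean. Fbxl14 and Fbxo9 differed by a root mean square of 0.79 on the log2 scale, Fbxo9 and Fbxo33 by 0.81, Fbxl14 and Fbxo33 by 0.95, and Fbxo33 and Fbxo45 by 1.33. Fbxo45 stood 1.94 from Fbxo9 and 1.95 from Fbxl14. Fbxl14 and Fbxo45, both listed for smaller cells, were the pair farthest apart. The closest pair, Fbxl14 and Fbxo9, was listed for opposite directions, and Fbxo9 and Fbxo33, both listed for larger cells, came next. The means of Fbxo9, Fbxo33 and Fbxo45 average probe sets that lay 2.36, 1.39 and 2.98 apart on the same measure. These are distances over 5 single samples and carry no test.

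The genes most like Fbxl14 were Cul7, the scaffold that partners Fbxw8, at 0.50, and Fbxl5, the iron-sensing receptor, at 0.62, against a median of 2.37 over all genes. Those most like Fbxo9 were Fbxo11, whose human form targets BCL6, at 0.48 and Fbxo10, whose human form targets BCL2, at 0.62, with a median of 2.26. Fbxo33 was most like Fbxo10 at 0.50 and Fbxo28 at 0.73, with a median of 1.67. For Fbxo45 they were Cul2, which builds the von Hippel-Lindau ligase, at 0.60, and Fbxl17, a receptor that checks BTB dimers, at 0.64, with a median of 1.59. Cul7, Fbxl5, Fbxo11 and Fbxo10 were read by 1 probe set each. These distances are between gene means. On the same measure the probe sets of Fbxo45 lay 2.98 from each other, those of Fbxo9 2.36 and those of Fbxo33 1.39. Each is more than the distance to the genes named for that member, so the likeness need not hold for single probe sets.

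**Figure D4:**
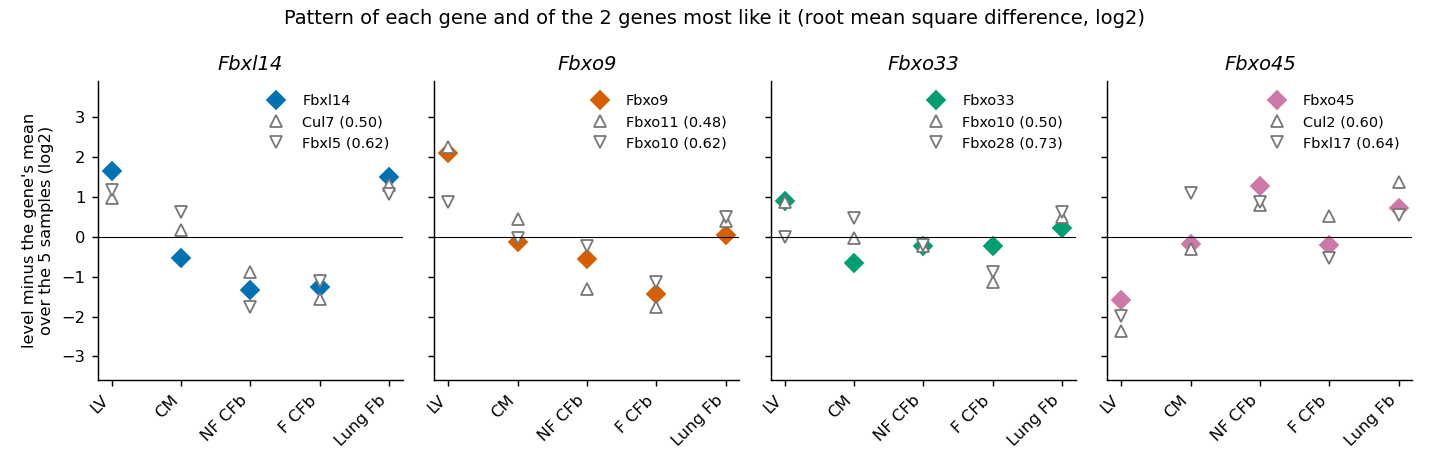
Level of each gene minus its own mean over the 5 samples on the log2 scale (coloured diamonds) with the 2 genes of the smallest root mean square difference (open triangles, distance in brackets). As deposited, the patterns of Fbxl14, Fbxo9 and Fbxo33 peak in LV and that of Fbxo45 is lowest there, whereas with equal medians or identical distributions Fbxo45 is lowest in F CFb.

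Cul1, the SCF scaffold, stood at 9.38 in CM, 8.73 in Lung Fb, 6.31 in NF CFb, 5.63 in F CFb and 0 in LV by its 1 probe set. The LV value is an intensity of 1, in a sample with values down to -3.32 and with no detection call, and is not read as a low level of the scaffold. The other screen hits in the tables were Fbxo6, a receptor for N-glycans, Fbxo25, Fbxo30, Fbxo32, which is Atrogin-1, Fbxw4 and Fbxw5. Of the 7 other hits, Cul1 included, 0 were 2-fold higher and 2, Cul1 and Fbxo30, 2-fold lower in LV than in CM, with a median difference of -0.34, beside 14.1 and 31.0 percent of all genes. With equal medians 4 of the 7, Fbxo6, Fbxo25, Fbxo32 and Fbxw5, were higher and the same 2 lower, with a median of 1.13, and with identical distributions 0 and 2, with a median of 0.71. The call of Cul1 rests each time on the LV value that is not read as a low level. As deposited, the 4 probe sets of Fbxo30 disagreed in direction in this pair. Between CM and NF CFb, 4 of the 7 were 2-fold higher in CM and 0 lower, beside 21.1 and 36.6 percent of all genes, namely Cul1 by 3.07, Fbxo30 by 1.76, Fbxw5 by 1.13 and Fbxo25 by 1.07. In F CFb 0 were higher and 1 was lower than in NF CFb, Fbxw5 at -1.86, beside 19.7 and 22.5 percent. In Lung Fb 1 was higher than in NF CFb, Cul1 by 2.42, and 4 were lower, Fbxo32, Fbxw5, Fbxo6 and Fbxw4, between -1.82 and -1.08, beside 14.1 and 42.3 percent. The probe sets of Fbxo30 disagreed in direction between CM and NF CFb, as did those of Fbxo6 and of Fbxo32 between Lung Fb and NF CFb. Cul1, Fbxo25, Fbxw4 and Fbxw5 were read by 1 probe set each. The study drew its library from CM expression, so counts that involve CM are not independent of how the hits were chosen.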

How the data were processed

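Levels were measured in 5 samples on the Affymetrix Mouse Expression Set 430, and the series' design text also names an exon array program. The authors deposited 2 sheets with log2 levels of 130 probe sets and a whole-array table of 45101 probe sets as linear intensity. No source used here states how background was corrected, probes summarised or arrays normalized. The sheets also hold 4 columns each of the authors' own log2 differences, which were not used. For the 7 probe sets of the 4 genes, all 35 deposited intensities equalled 2 to the power of the log2 level within 1 percent.

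The members were found by the first gene symbol of each row, and the log2 values of a gene's probe sets were averaged. Members, lists and rules were chosen with earlier results of these data known. The named genes are the 4 members, the 7 other screen hits measured, and for each member the 2 genes with the smallest root mean square difference over the 5 samples after centring. Thresholds of 6.0 and 6.5 are those the study used, and fold rules were 2 and, as an alternative, 1.5. Levels of different genes were not ranked, since probe sets respond differently. Signal over background was not given, and the number of arrays limits the precision. Promoters are from RefSeq, where 3 of the 4 genes had an entry, and siRNAs and primers from the study's supplement. Alternatives are under the closing section. The calculations used Python 3.11.15, pandas 2.3.3, NumPy 2.4.6 and matplotlib 3.10.9, and were tested on simulated data.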

Additional observations from a re-analysis of the deposited data

How the results depend on the processing

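No paired analysis was possible because there was a single sample per condition, and no replicate could be left out. For genes with 2 probe sets the median equals the mean, so that alternative could move nothing for these 4 genes, and levels taken from the whole-array table left each count within 1.5 times its main value. At a threshold over 6.5 and without the level rule every count stayed within 1.5 times its main value.

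With the lowest probe set 1 gene reached 6.0 in CM and 1 in F CFb, against 4 and 3, 1 was 2-fold lower in Lung Fb than in NF CFb, against 0, and 0 were lower in LV than in CM, against 1. With the highest probe set 1 gene, Fbxo9, was higher and 0 were lower in CM than in NF CFb, against 0 and 1, 0 were lower in F CFb, against 1, and 2 were higher in Lung Fb, against 1, and the difference of Fbxo45 between CM and NF CFb turned to 0.063. Without _s_at, _x_at and _a_at probe sets, which leaves Fbxo9 with 1417480_at alone, 1 gene was higher in CM and 2 in Lung Fb than in NF CFb. The count of genes higher in LV than in CM was 2, against 3, with the highest probe set, with the lowest and without the _a_at probe set. Requiring all probe sets in 1 direction gave 0 lower in CM than in NF CFb and 0 lower in LV than in CM. At 1.5-fold 1 gene was higher in CM, 2 were lower in F CFb and 2 higher in Lung Fb than in NF CFb.

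Equal medians and quantile normalization each gave 3 genes at 6.0 in CM, against 4, and 4 in LV, against 3. Each also gave 2 genes at 6.0 in NF CFb, against 4, 1 gene higher in CM than in NF CFb, Fbxl14 and Fbxo9 in turn, and 0 lower in LV than in CM. In Lung Fb against NF CFb they gave 2 and 3 higher. With each of them, 0 of the 3 genes with 2 probe sets had both in 1 direction in CM against NF CFb, where 1 had as deposited, and 1 in Lung Fb against NF CFb, where 0 had. The difference of Fbxo45 between LV and CM turned to 0.066 with equal medians. Both scalings rest on the 130 probe sets of the sheets. The share of 2-fold genes, among all 71, that were higher moved from 31.2 to 62.8 and 60 percent in LV against CM, from 36.6 to 51.3 and 47.4 in CM, and from 25 to 45.9 and 48.8 in Lung Fb, each against NF CFb. The median difference over all genes in LV against CM went from -0.975 to 0.491 and 0.671. The counts of the 7 other hits under both scalings were added after the data were seen. From as deposited to equal medians and quantile normalization, the number higher went from 4 to 5 and 3 in CM, from 0 to 1 and 2 in F CFb and from 1 to 1 and 2 in Lung Fb, each against NF CFb, and the number lower in Lung Fb from 4 to 3 and 2. The cause of these shifts was not tested.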
